A study of Mus musculus with 24 samples.

Results

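The genes described here are the nuclear genes of mitochondrial complex I and its dedicated assembly factors. They were chosen by name alone, as the protein-coding mouse genes whose symbol starts with Nduf, and the rule used no measured value. It found 46 genes among the 55414 identifiers of the expression table. A further 5 Nduf entries are not protein-coding and were set aside: Ndufa11b, Ndufb4c, Ndufs6b and Ndufab1-ps are processed pseudogenes and Ndufb1-ps is a long noncoding RNA. By role, the 46 genes comprise 7 core subunits, 9 accessory subunits of the peripheral arm, 9 of the proximal membrane arm, 11 of the distal membrane arm, 8 assembly factors and the 2 genes of the Ndufa4 family.

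RNA was sequenced from 24 libraries, each made from about 500 laser-captured neurons of the MS/VDB area, the medial septum with the vertical limb of the diagonal band, of male mice aged about 6 months. Antibody staining for ChAT, which synthesises acetylcholine, marked the neurons to be cut. All mice had a Ts65Dn dam and a C57Bl/6J Eicher × C3H/HeSnJ F1 sire, and were either Ts65Dn, a trisomic model of Down syndrome, or disomic (2N). Breeder pairs were fed chow with choline chloride at 1.1 g/kg (control diet) or 5.0 g/kg (supplemented diet) from conception to weaning, after which every animal ate the control diet. The labels put 6 libraries in the control-diet 2N group, 6 in control-diet Ts65Dn, 4 in supplemented 2N and 8 in supplemented Ts65Dn, whereas the design text gives 6 animals for each. Ts65Dn carries an extra segment with stretches of chromosomes 16 and 17. Among the 46 genes, Ndufb4 lies on chromosome 16 and Ndufa11, Ndufa7, Ndufaf7, Ndufb10, Ndufv2 and Ndufv3 lie on chromosome 17, and 0 of these lie inside the triplicated stretches.

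Complex I takes electrons from NADH and passes them to ubiquinone while it pumps protons across the inner mitochondrial membrane. Its peripheral arm stands in the matrix and holds the flavin and the iron-sulfur clusters, and its membrane arm holds the proton channels. The core subunits of the peripheral arm are nuclear genes and those of the membrane arm are genes of the mitochondrial genome, so that the finished enzyme needs RNA from both. Accessory subunits surround and steady this core, and assembly factors join the intermediates and leave before the complex is complete. Cholinergic projection neurons of the basal forebrain have long, highly branched axons and a high demand for ATP.

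Some libraries stood apart, and these bear on every result below. Total counts per library ran from 4688258 to 13443438, with a median of 10010353. Libraries 2 and 5 of the supplemented Ts65Dn group stood apart from its other 6. The 2 mitochondrial ribosomal RNAs took 17.8% and 21.1% of their counts, against 29.0% to 43.3% in the other 6. The 10 2N libraries had 18.1% to 25.8% and the control-diet Ts65Dn libraries 13.5% to 29.3%. This share therefore does not tell whether libraries 2 and 5 are 2N or Ts65Dn. The columns of libraries 2 and 5 in the series table also stand within the block of supplemented 2N columns. Their labels were kept, and the members' median in each comparison that includes them is given with and without them, as are the values of most members named there. Leaving them out was chosen after the data were seen. Both had a higher summed member level than the other 6, so leaving them out lowers that level in the group. Control-diet Ts65Dn 3 and supplemented Ts65Dn 7 held the fewest detected genes (13102 and 13141). RNA of Chat, the gene of the stained enzyme, was under 1 CPM (the count scaled to the library total) in control-diet 2N 5, control-diet Ts65Dn 3, 5 and 6, supplemented 2N 3 and supplemented Ts65Dn 7. Of the other defining cholinergic genes, Slc18a3 was at 0 in 4 libraries and Slc5a7 in 2.

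The levels of the members were compared with each other as TPM, a share of all transcripts in a library that is scaled for gene length. In control-diet 2N neurons, members with high levels were the accessory subunit Ndufa6 (127 ± 76.9 TPM, SD, n = 6), the core iron-sulfur subunit Ndufv2 (126 ± 47.7), the accessory subunit Ndufs4 (112 ± 43.1) and Ndufv1 (108 ± 43.8), the core subunit that binds NADH and the flavin. The spreads of these 4 overlapped, so their order is not resolved. Core subunits had a median level of 57.5 TPM, peripheral arm accessory subunits 59.2, proximal membrane arm subunits 64.6 and distal membrane arm subunits 42.3, while the 8 assembly factors had 16.9. The lowest levels were those of the distal membrane subunit Ndufb6 (3.02 ± 2.41 TPM) and of Ndufa4l2 (1.02 ± 2.50), a paralogue of Ndufa4 that was at 0 in 20 of 24 libraries. Of the 46 members, 22 were above 0 in every library, so that many of the low genes sat near the limit of what about 500 neurons gave.

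Promoter windows were read from RefSeq (GRCm38.p6) for 40 of the 46 members, from 250 bases before to 50 bases after the annotated start. Members without a matched window include Ndufa2, Ndufa4l2, Ndufaf6, Ndufb9 and Ndufs1. Both strands were searched for the letters of motifs known from genes of the respiratory chain. GCGCATGCG, the letters bound by NRF1, stood in the windows of 4 members (10%), Ndufa11, Ndufa8, Ndufaf4 and Ndufaf5, and in 1.75% of all 32851 windows. AAGATGGCG, the letters bound by YY1, stood in 6 members (15.0%), Ndufa9, Ndufaf8, Ndufc1, Ndufs4, Ndufs6 and Ndufs7, and in 1.4% of all windows. All 6 YY1 matches lay on the strand of the gene and began 11 to 36 bases after the start. CCGGAAG, the core of ETS sites such as those of GABP, stood in 6 members (15.0%), Ndufaf1, Ndufaf8, Ndufb6, Ndufb7, Ndufs3 and Ndufs8, and in 8.86% of all windows. GGGCGG, the Sp1 box, stood in 21 members (52.5%) and in 35.66% of all windows. TCAAGGTCA, the site of estrogen-related receptors, stood in 0 members and in 0.42% of all windows. Matches of different motifs shared bases in 1 case, an ETS and an Sp1 match in Ndufs3, and the NRF1 letters match both strands 1 base apart where they extend into a palindrome. A match describes the letters in the window and does not show binding.

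Windows of 4 members are printed 5′ to 3′ on the strand of the gene, because the first pair was lower in Ts65Dn at an unadjusted p under 0.05 on the control diet and the second pair stood on the other side of 0. They are Ndufa6 (chr15:82354242-82354541, minus strand), Ndufs4 (chr13:114388045-114388344, minus strand), Ndufs3 (chr2:90904672-90904971, minus strand) and Ndufaf5 (chr2:140170396-140170695, plus strand). Capitals mark matches to the NRF1, ETS or YY1 letters, and the Ndufa6 window holds none of these.
Ndufa6: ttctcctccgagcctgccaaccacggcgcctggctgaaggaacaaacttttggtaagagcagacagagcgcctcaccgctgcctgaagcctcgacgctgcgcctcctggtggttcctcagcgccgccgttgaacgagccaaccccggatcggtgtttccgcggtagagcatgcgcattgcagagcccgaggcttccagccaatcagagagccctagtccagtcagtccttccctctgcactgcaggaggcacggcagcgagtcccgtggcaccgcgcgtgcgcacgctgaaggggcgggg
Ndufs4: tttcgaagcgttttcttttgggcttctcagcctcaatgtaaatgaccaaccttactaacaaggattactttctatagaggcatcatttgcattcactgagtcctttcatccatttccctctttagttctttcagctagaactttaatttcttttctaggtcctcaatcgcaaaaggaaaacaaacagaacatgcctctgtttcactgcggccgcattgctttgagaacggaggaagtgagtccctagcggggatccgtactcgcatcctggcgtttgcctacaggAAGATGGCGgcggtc
Ndufs3: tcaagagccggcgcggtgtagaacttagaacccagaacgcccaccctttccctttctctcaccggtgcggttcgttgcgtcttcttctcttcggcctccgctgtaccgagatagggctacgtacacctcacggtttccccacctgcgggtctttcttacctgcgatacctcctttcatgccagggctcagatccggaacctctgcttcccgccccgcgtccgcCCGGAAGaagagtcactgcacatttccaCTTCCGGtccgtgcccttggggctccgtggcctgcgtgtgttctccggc
Ndufaf5: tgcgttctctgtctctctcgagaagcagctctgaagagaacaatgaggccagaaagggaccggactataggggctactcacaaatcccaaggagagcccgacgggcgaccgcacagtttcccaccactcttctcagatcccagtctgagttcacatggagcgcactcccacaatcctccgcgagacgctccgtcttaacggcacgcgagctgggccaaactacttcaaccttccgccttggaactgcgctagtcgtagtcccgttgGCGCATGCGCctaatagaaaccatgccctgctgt

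The summed level of all 46 members separated the genotypes on the control diet. The 6 control-diet 2N libraries lay between 1921 and 2699 TPM with a median of 2252, and the 6 control-diet Ts65Dn libraries lay between 557 and 1581 with a median of 1283. The groups did not overlap: every Ts65Dn library lay below every 2N library, and the means, 2275 ± 287 and 1239 ± 379 (SD, n = 6 each), differed by 1.84-fold. The supplemented 2N libraries 1 to 4 had 2307, 2439, 1821 and 2986 TPM, within or close to the control-diet 2N range. The supplemented Ts65Dn libraries ran from 632 to 2521 TPM with a median of 1031, and the highest values were those of libraries 2 (2401) and 5 (2521). Without these 2 the group ran from 632 to 1117 TPM (910 ± 193, SD, n = 6) and lay below every library of both 2N groups. Libraries 2 and 5 were set apart after the data were seen. They also had nuclear protein-coding TPM sums of 429707 and 400865, against 177776 to 244817 in the other 6. The separation without them is therefore not an independent result on genotype.

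Part of this difference was shared by other nuclear genes, since TPM is a share of all transcripts in a library. The TPM of all nuclear protein-coding genes summed to 411528 in 2N and 339367 in Ts65Dn on the control diet, and to 398496 in 2N and 210257 in Ts65Dn (libraries 2 and 5 left out) on the supplemented diet. As a share of the counts of nuclear protein-coding genes, the members took 0.198% ± 0.0296 (SD, n = 6) in control-diet 2N and 0.124% ± 0.0371 (n = 6) in control-diet Ts65Dn. On this scale the groups met in 1 library, control-diet Ts65Dn 4 at 0.186%, which lay above the lowest 2N library at 0.159%. The share was 0.212% ± 0.0158 (n = 4) in supplemented 2N and 0.158% ± 0.0416 (n = 8) in supplemented Ts65Dn. Without libraries 2 and 5, a choice made after the data were seen, the latter was 0.141% ± 0.0284 (n = 6). It then ran from 0.0953% to 0.170%, below the lowest supplemented 2N library at 0.191%. The subunits of complexes II to V moved alongside: the ratio of summed member TPM to their summed TPM was 0.428 ± 0.0334, 0.442 ± 0.0760, 0.437 ± 0.0275 and 0.488 ± 0.0335 in the 4 groups in the order above. In captured tissue, fewer cells of a type and less RNA per cell cannot be told apart.

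**Figure D1:**
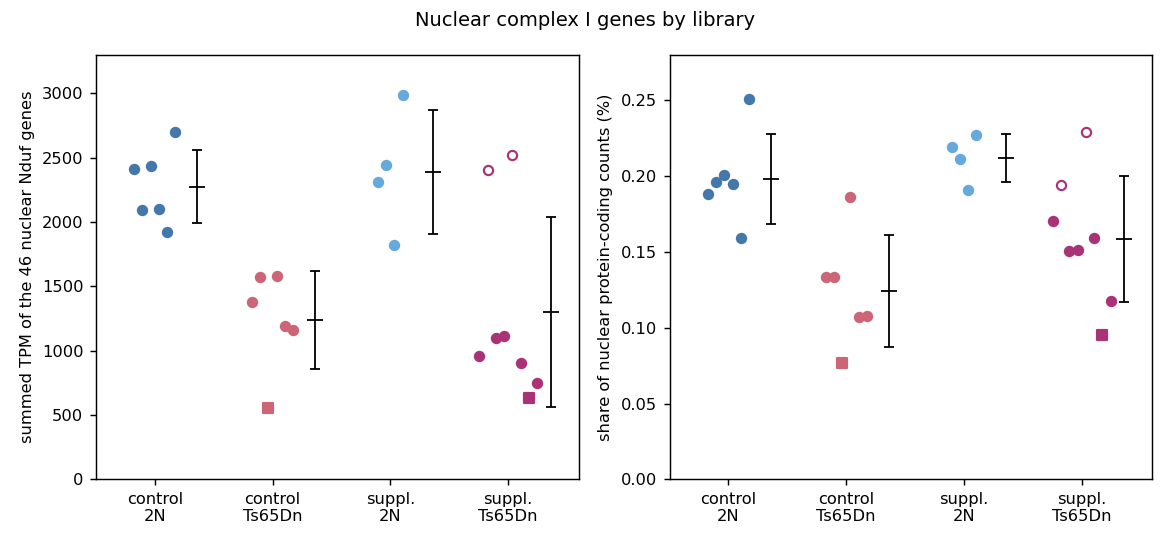
Summed TPM of the 46 members (left, y axis) and their share of nuclear protein-coding counts in percent (right, y axis) in each library by group, with the mean and SD beside the points. Open circles are supplemented Ts65Dn 2 and 5 and squares are the 2 libraries with the fewest genes; on the left, control-diet Ts65Dn (557 to 1581 TPM) lies below control-diet 2N (1921 to 2699 TPM).

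Single genes were tested with edgeR's quasi-likelihood test on the counts of all 19967 genes that passed the filter on low counts, 45 of them members (Ndufa4l2 did not pass). Levels below are CPM scaled by library, and fold changes are on the log2 scale. At a Benjamini-Hochberg adjusted p under 0.05, 0 members passed in any of the 6 comparisons, so the differences between members and groups below are values and not calls. The common biological coefficient of variation, 1 estimate over all tested genes, was 1.4, that is, a spread between animals of a group above the mean. Most members varied less than this. In control-diet 2N the coefficient of variation of the tested members' CPM ran from 0.197 (Ndufa13) to 1.34 (Ndufaf1), with 0.499 for Ndufa6.

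On the control diet, Ts65Dn was compared with 2N to ask how the trisomy alone bears on these neurons. Of the 45 tested members, 38 had a lower fitted level in Ts65Dn (84.4%, against 50.8% of all tested genes), and the median difference was −0.69, against −0.02 for all genes. At an adjusted p under 0.05 edgeR passed 0 members and 0.336% of all genes. At an unadjusted p under 0.05, 6 members were lower and 0 higher, where 5.55% of all genes were lower and 5.36% higher. By DESeq2's Wald test 1 member, Ndufa6, fell past the adjusted threshold (−1.87, DESeq2 adjusted p = 0.0222), as did 1.67% of the genes it adjusted. Every role but the Ndufa4 family shared the direction: 6 of 7 core subunits, 8 of 9 peripheral arm, 8 of 9 proximal and 10 of 11 distal membrane arm subunits and 6 of 8 assembly factors were on the lower side.

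The smallest p value belonged to Ndufa6, an accessory subunit of the peripheral arm that belongs to the LYR family of iron-sulfur helper proteins. Its level in control-diet 2N ran from 18.9 to 69.7 CPM with a median of 44.9, and in control-diet Ts65Dn from 3.91 to 25.5 CPM with a median of 7.44. All 6 Ts65Dn libraries lay below the 2N mean of 43.6 CPM, although the ranges overlapped between 18.9 and 25.5 CPM. The difference was −1.90 ± 0.55 on the log2 scale (SE, edgeR adjusted p = 0.143). Without control-diet Ts65Dn 2, the library with the highest level in its group, the difference was −2.30 (edgeR adjusted p = 0.0475). Ndufa6 was then the 1 member to pass, beside 0.594% of all genes. Of 12 fits that each left out 1 library, this was the only one in which a member passed. It dropped the highest Ndufa6 value of its group, so the larger difference follows from the choice of library.

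Ndufs1, which carries several iron-sulfur clusters, ran from 44.2 to 103 CPM (median 60.0) in 2N and from 15.0 to 65.7 CPM (median 35.0) in Ts65Dn (−0.88 ± 0.44, edgeR adjusted p = 0.463). The ranges of the core subunits that follow overlapped between the groups. Ndufs7, which holds the last cluster before ubiquinone, was at 7.62 to 68.2 CPM in 2N and 3.67 to 31.1 CPM in Ts65Dn (−0.81), and Ndufv2 at 39.1 to 72.8 CPM and 10.4 to 75.7 CPM (−0.59). Ndufs8, a ferredoxin-like subunit, was at 7.88 to 32.8 CPM and 0.81 to 27.0 CPM (−0.41), and Ndufv1 at 26.9 to 93.2 CPM and 38.3 to 78.4 CPM (−0.08). Ndufs3, a core subunit that joins the iron-sulfur path to the membrane arm, was on the other side at 0.61 ± 0.57, with ranges of 9.5 to 26.4 CPM in 2N and 7.49 to 45.2 CPM in Ts65Dn.

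In the membrane arm the widest gap was that of Ndufb4, a distal subunit. Its level was 3.23 to 37.6 CPM in control-diet 2N (median 26.6) and 0 to 8.44 CPM in control-diet Ts65Dn (median 1.29). The ranges overlapped through 1 low 2N library, control-diet 2N 4. The difference was −3.26 ± 1.16 (edgeR adjusted p = 0.215). The pseudogene Ndufb4c had group means of 8.01 to 9.82 CPM, so reads of Ndufb4 and of this copy could have been split in the counting. Ndufb9, another distal subunit of the LYR family, ran from 13.2 to 82.9 CPM in 2N and from 3.86 to 20.1 CPM in Ts65Dn (−1.64 ± 0.61, edgeR adjusted p = 0.228).

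Ndufa10, a proximal subunit with the fold of a nucleoside kinase, ran from 51.8 to 180 CPM in control-diet 2N and from 35.9 to 86.4 CPM in control-diet Ts65Dn. Its difference was −0.79 ± 0.36 (edgeR adjusted p = 0.389), with all 6 Ts65Dn libraries below the 2N mean and overlapping ranges. Ndufs4, whose loss causes Leigh syndrome in people and a like encephalopathy in mice, was also among the members below an unadjusted p of 0.05. Its level was 14.3 to 73.5 CPM in 2N and 4.0 to 55.4 CPM in Ts65Dn (−1.19 ± 0.59, edgeR adjusted p = 0.451). Of the members with the YY1 letters shown above, Ndufs4 had −1.19, Ndufc1 −1.31, Ndufaf8 −2.30, Ndufs7 −0.81, Ndufa9 −0.64 and Ndufs6 −0.25 on the log2 scale. Those with the NRF1 letters lay on both sides of 0, Ndufa11 at −1.74, Ndufaf4 at −1.2, Ndufa8 at 0.38 and Ndufaf5 at 0.58. With the ETS letters, Ndufs3 and Ndufb6 were on the higher side and Ndufaf1, Ndufaf8, Ndufb7 and Ndufs8 on the lower. Since 38 of all 45 members were lower, motif groups this small cannot be told from the rest, and no link was tested.

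The members on the higher side were few. Besides Ndufs3 there were 6, all with an unadjusted p above 0.05: Ndufv3, Ndufaf5, Ndufb6, Ndufa8, Ndufaf2 and Ndufa4. Ndufv3, an accessory subunit of the NADH module, was at 36.1 to 67.2 CPM (median 54.2) in 2N and 40.3 to 104 CPM (median 67.3) in Ts65Dn (0.41 ± 0.39). Ndufaf5, an assembly factor with a methyltransferase fold that hydroxylates Ndufs7, had a difference of 0.58 ± 0.76. Ndufaf5 was at 2.78 to 22.5 CPM in 2N and 8.03 to 25.9 CPM in Ts65Dn, ranges that overlapped. Groups that did not overlap at all on the lower side were found for 0 members, where 0.366% of all genes had such groups.

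**Figure D2:**
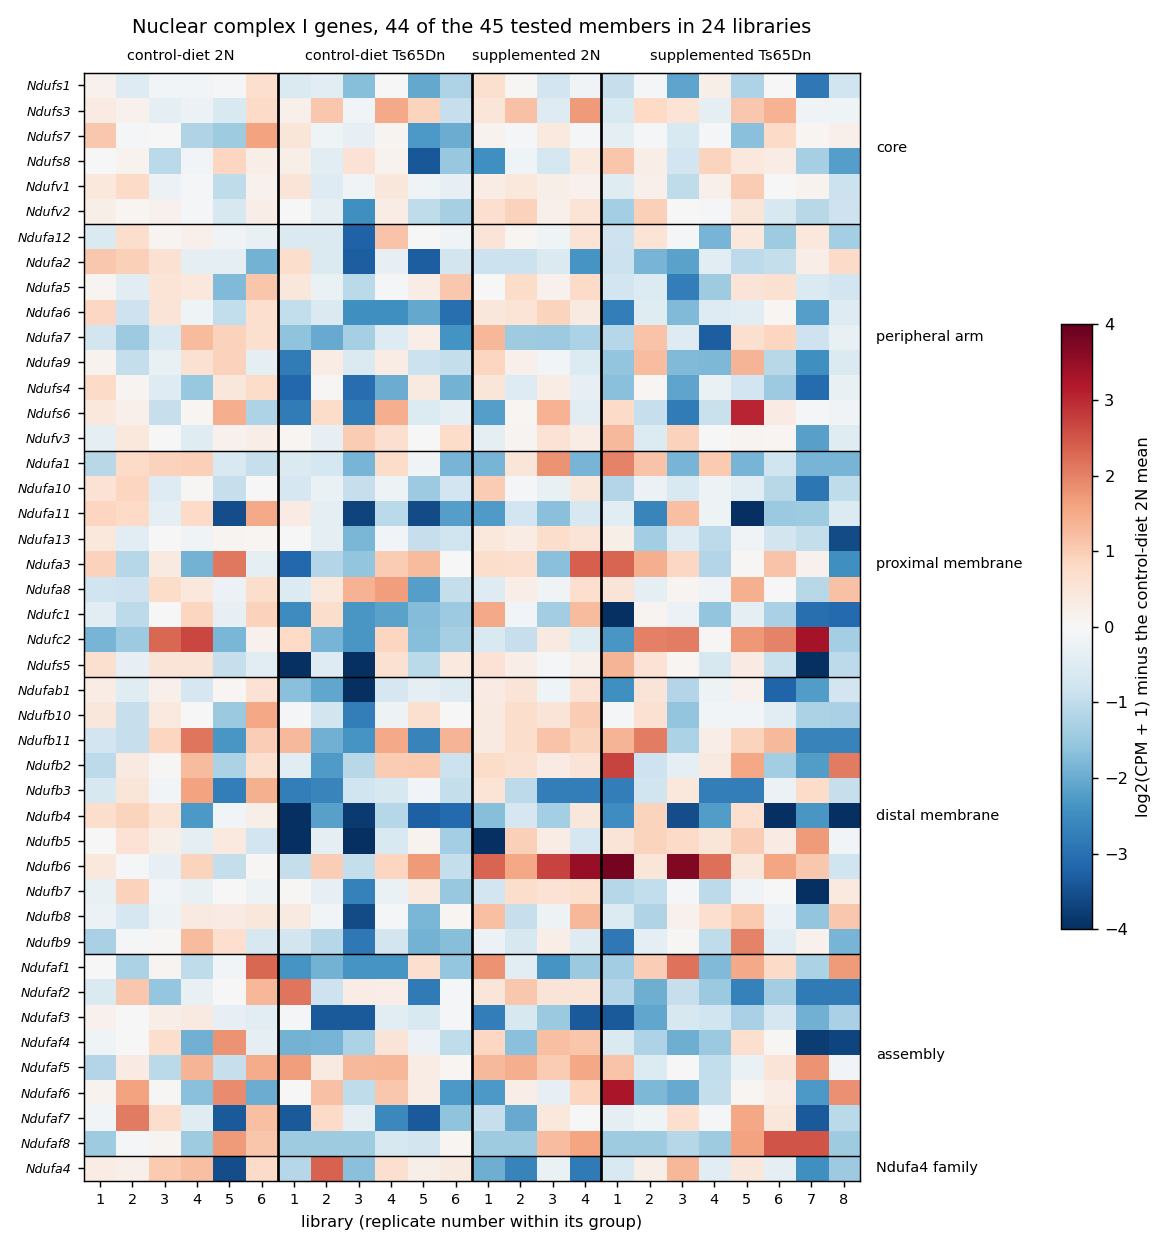
Each row is 1 of 44 of the tested members, grouped by role, and each column 1 library. Colour gives log2(CPM + 1) minus the mean of the control-diet 2N libraries (blue lower, red higher, limited to 4 on either side); Ndufb6 is redder in the supplemented 2N columns and Ndufb4 bluer in control-diet Ts65Dn.

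Other genes were read beside these values. Identifier prefix 17 was the only prefix with both genotypes on the control diet (4 against 4 libraries). The labels do not state what the prefix means. Within it the members' median difference of mean log2 CPM was −1.07 with 38 of 45 lower, against −0.18 for all genes. Here and below, values within a prefix are such differences and not fitted values. The edgeR fit on prefix 17 alone gave −0.80 with 38 of 44 lower, against −0.04 for all genes. Control-diet Ts65Dn 3, 5 and 6 and control-diet 2N 5, with Chat under 1 CPM, are among these libraries. Cholinergic marker RNA was also lower: the 10 markers summed to 188 to 279 CPM in control-diet 2N and to 8.68 to 226 CPM in control-diet Ts65Dn, and 9 of 10 were on the lower side. So were 9 of 10 astrocyte markers and 10 of 10 oligodendrocyte markers, the latter summing to 2988 to 3964 CPM in 2N and 734 to 4067 CPM in Ts65Dn. With the glial marker score as a covariate the median of the members was −0.33 with 26 of 45 lower, against 0.20 for all genes. This score ran from 0.04 to 0.61 in control-diet 2N and from −1.15 to −0.07 in control-diet Ts65Dn. The ranges did not meet, so that fit cannot fully separate the score from genotype. Without the libraries under 1 CPM of Chat it was −0.44 with 33 of 46 lower, against −0.11 for all genes. In either setting edgeR called 0 members. Leaving out the 2 libraries of fewest genes gave a members' median of −0.66, against −0.01 for all genes. The 8 general neuron markers summed to 4367 to 5504 CPM in control-diet 2N and to 3079 to 4894 CPM in control-diet Ts65Dn, and 6 of 8 were on the lower side with a median of −0.44. The 7 markers of glutamatergic neurons summed to 17.3 to 171 CPM in control-diet 2N and to 27.99 to 1017 CPM in control-diet Ts65Dn, with 4 of 7 on the lower side. Among them Slc17a7, the vesicular glutamate transporter of cortical neurons, had means of 27.9 and 176 CPM (2.65 ± 1.2, edgeR adjusted p = 0.380). The part of these other cell markers and of capture in the members' difference was not tested beyond these settings.

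The supplemented diet in Ts65Dn was compared with the control diet in Ts65Dn to ask whether maternal choline moved these genes in the trisomic animals. The members' median difference was 0.44, against 0.04 for all genes, with 15 of 45 lower. With libraries 2 and 5 left out it was −0.02 with 23 of 45 lower, and with the 2 libraries of fewest genes left out as well it was 0.21 with 22 lower. The median also moved with other settings: it was 0.11 with the identifier prefix as a factor (19 lower), 0.15 with the glial score (20 lower), 0.80 with the share of mitochondrial ribosomal RNA as a covariate (7 lower) and 0.02 on log2(TPM + 1). Within prefix 16 (2 against 2 libraries) it was −0.43, against 0.0 for all genes. edgeR passed 0 members, with or without the 2 libraries, where 0.13% and 0.353% of all genes passed. At an unadjusted p under 0.05, 1 member was lower and 3 higher, where 4.24% of all genes were lower and 5.38% higher. Without libraries 2 and 5 these counts were 1 and 1, where 4.85% of all genes were lower and 5.45% higher. The glutamatergic markers summed to 15.7 to 35.2 CPM in supplemented Ts65Dn, and 6 of 7 were on the lower side (median −3.23), with Slc17a7 at −4.98 ± 1.19 (edgeR adjusted p = 0.0661). The cholinergic markers summed to 223 to 421 CPM in the same 8 libraries, and the part of either in the members' values was not tested.

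Those on the higher side included Ndufb9 (1.5 ± 0.58, edgeR adjusted p = 0.289) and the distal subunit Ndufb5 (1.88 ± 0.82, edgeR adjusted p = 0.391). Ndufb9 ran from 3.79 to 137 CPM in supplemented Ts65Dn, and its highest value was that of library 5. Among the other 6 its highest value was 38.2 CPM, and the highest in control-diet Ts65Dn was 20.1 CPM. Ndufb5 showed the same side in all 8 libraries: it ran from 19.8 to 73.2 CPM against 0 to 23.8 CPM on the control diet, where 2 libraries were at 0. In the fit that left out libraries 2 and 5, the difference was 0.72 for Ndufb9, less than in the full fit, and 1.83 for Ndufb5.

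The 1 member lower at an unadjusted p under 0.05 was Ndufaf2, an assembly factor that holds the place of Ndufa12 on a late intermediate. All 8 supplemented Ts65Dn libraries had at most 2.75 CPM (median 1.2), whereas control-diet Ts65Dn ran from 0 to 30.8 CPM with a median of 6.74. The difference was −2.99 ± 1.2 (edgeR adjusted p = 0.311), and −2.72 with libraries 2 and 5 left out. The next on this side was the accessory subunit Ndufa5, at 8.44 to 41.4 CPM (median 21.0) on the control diet and 1.95 to 29.9 CPM (median 11.6) on the supplemented diet (−0.67 ± 0.57). Ndufa4 followed at −0.81 ± 0.87, with 2.65 to 58.1 CPM and 1.13 to 28.1 CPM. Over the 6 libraries other than 2 and 5 these differences were −0.90 for Ndufa5 and −0.98 for Ndufa4.

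Ts65Dn was then compared with 2N among supplemented animals. The median difference of the members was −0.25, against 0.09 for all genes, and 27 of 45 were lower. edgeR passed 0 members and 0.18% of all genes. At an unadjusted p under 0.05, 5 members were lower and 0 higher, where 2.49% of all genes were lower and 6.99% higher. Over the 6 libraries other than 2 and 5 the median was −0.44 with 29 of 45 lower, edgeR passed 0 members and 0.768% of all genes, and 11 members were lower at an unadjusted p under 0.05, where 3.72% of all genes were. With the share of mitochondrial ribosomal RNA as a covariate the median was 0.09 and 19 of 45 were lower, so the direction of the median depended on this term. The 8 neuron markers summed to 4260 to 5047 CPM in supplemented 2N and to 2822 to 5061 CPM in supplemented Ts65Dn, or 2822 to 3871 CPM without libraries 2 and 5. Of these 8, 5 were on the lower side and 0 passed with all libraries, Syt1 at −0.62 ± 0.20 (edgeR adjusted p = 0.293) and Snap25 at −0.74 ± 0.24 (edgeR adjusted p = 0.314), and 7 were on the lower side and 2 passed without the 2 libraries. Both genes act in the release of synaptic vesicles, and the part of neuron RNA in the members' difference was not tested.

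The 5 members were Ndufa10, Ndufa13, Ndufa6, Ndufaf2 and Ndufc1. Ndufa10 had 203, 96.5, 81.6 and 137 CPM in supplemented 2N and 12.7 to 86.5 CPM (median 57.1) in supplemented Ts65Dn, and all 8 lay below the 2N mean. Its difference was −1.17 ± 0.37 (edgeR adjusted p = 0.275). Ndufa13, also known as GRIM-19, a proximal subunit that also regulates cell death, had 87.6, 79.6, 105 and 93.5 CPM in supplemented 2N and 4.48 to 76.6 CPM (median 35.6) in supplemented Ts65Dn. These groups did not overlap, and the difference was −1.23 ± 0.41 (edgeR adjusted p = 0.329).

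Ndufa6 had 53.2, 57.6, 72.5 and 49.9 CPM in supplemented 2N and 4.9 to 40.7 CPM (median 26.7) in supplemented Ts65Dn, again without overlap (−1.43 ± 0.54, edgeR adjusted p = 0.417). Ndufa6 thus lay below the 2N mean of the same diet in 6 of 6 control-diet and 8 of 8 supplemented Ts65Dn libraries, libraries 2 and 5 included. Ndufaf2 had 9.1, 13.95, 9.2 and 9.27 CPM against at most 2.75 CPM (−3.16 ± 1.28, edgeR adjusted p = 0.426). Ndufc1, a small proximal subunit, had 54.7, 17.1, 6.48 and 45.7 CPM in supplemented 2N and 0 to 20.2 CPM in supplemented Ts65Dn (−1.93 ± 0.87). All 5 stayed on the lower side when libraries 2 and 5 were left out, Ndufa10 at −1.36, Ndufa13 at −1.27, Ndufa6 at −1.58, Ndufaf2 at −2.90 and Ndufc1 at −2.59, with edgeR adjusted p from 0.107 to 0.405.

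Groups without overlap on the lower side were found for 3 members, Ndufa13, Ndufa6 and Ndufaf2, where 0.411% of all genes had them. There were 8 when libraries 2 and 5 were left out, adding Ndufa9, Ndufab1, Ndufb10, Ndufb4 and Ndufv2, where 1.52% of all genes had them. Both libraries were set apart after the data were seen and had high member levels. The added members therefore follow in part from that choice. Ndufb4 is an example: libraries 2 and 5 had 37.9 and 32.4 CPM and the other 6 at most 3.45 CPM, while the 4 supplemented 2N libraries had 5.45 to 27.4 CPM. The smallest p values on the higher side were those of Ndufc2 (2.42 ± 1.43), Ndufa4 (1.78 ± 1.09) and Ndufb5 (0.87 ± 0.91). In the fit without libraries 2 and 5 they were 2.37, 1.61 and 0.82. Ndufc2, a proximal subunit, had 2.29, 1.67, 5.44 and 2.55 CPM in supplemented 2N and 0 to 49.8 CPM (median 17.2) in supplemented Ts65Dn. Within prefix 16 (2 against 2 libraries) the members' median was −1.02 with 33 of 45 lower, against −0.09 for all genes.

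**Figure D3:**
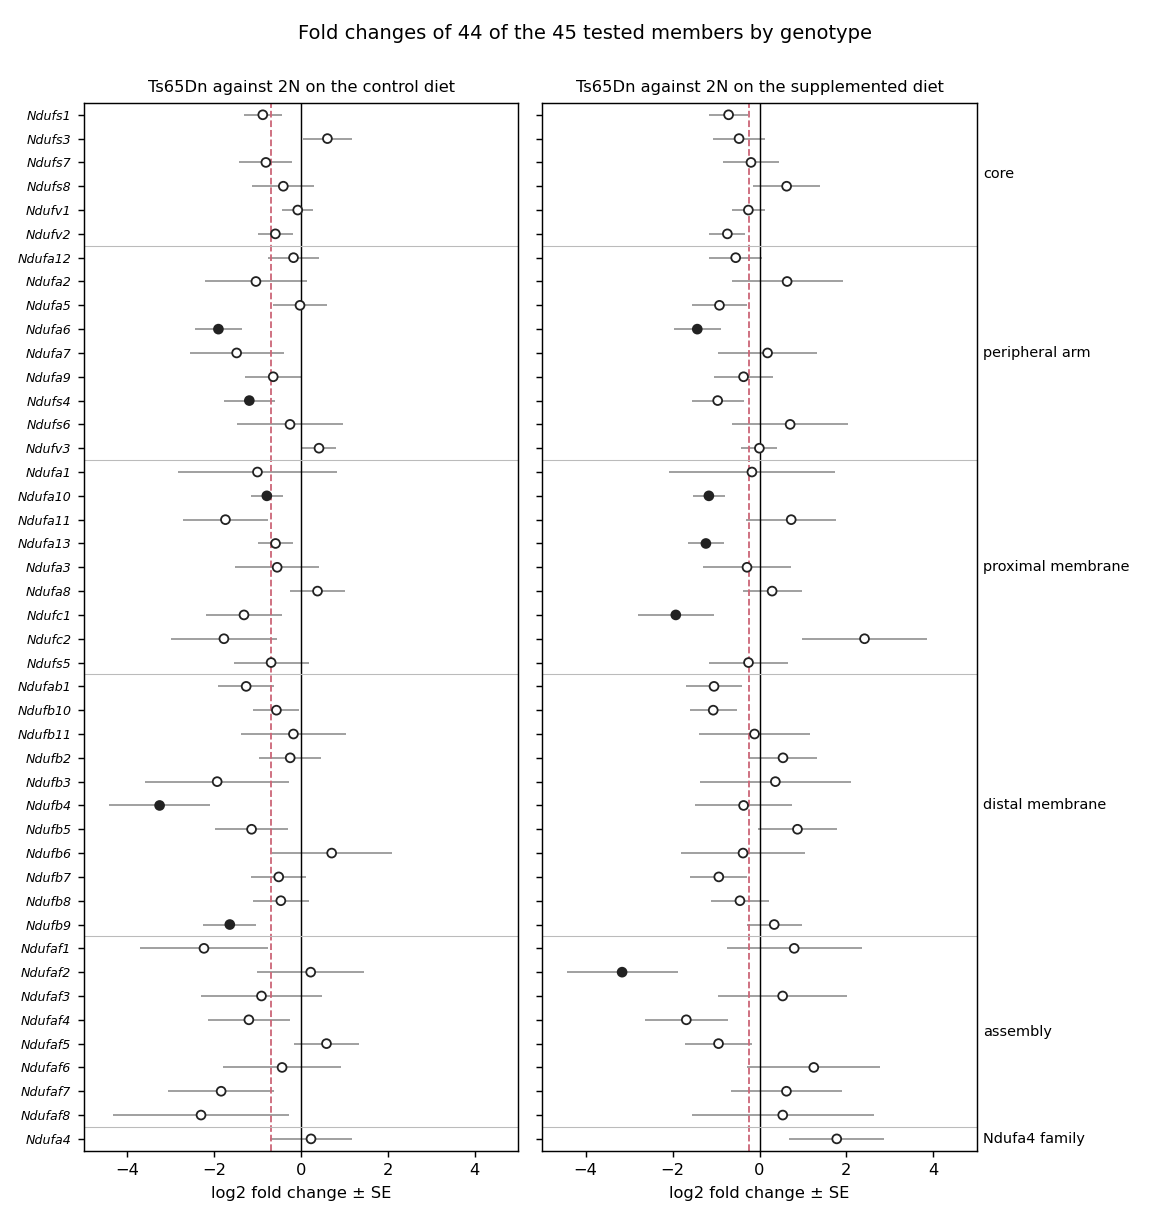
Log2 fold change of Ts65Dn against 2N (x axis, with its standard error) for 44 of the 45 tested members on the control diet (left) and the supplemented diet (right), all libraries included. Filled points have an unadjusted p under 0.05 (5 on the left, 5 on the right) and dashed lines mark the medians over all 45, −0.69 and −0.25.

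Among 2N animals the supplemented diet was compared with the control diet. The members' median difference was 0.16, against −0.06 for all genes, with 20 of 45 lower. edgeR passed 0 members and 0.00501% of all genes, and at an unadjusted p under 0.05 there was 1 member lower and 1 higher, where 5.06% of all genes were lower and 1.86% higher. The higher member was Ndufb6, which had 8.6, 4.68, 11.45 and 20.6 CPM in supplemented 2N and at most 2.58 CPM in control-diet 2N. The fitted difference of Ndufb6 was 3.37 ± 1.57 (edgeR adjusted p = 0.652). The lower member was Ndufa4, first described in complex I and now assigned to cytochrome c oxidase. It had 2.01, 0.83, 8.54 and 0.62 CPM in supplemented 2N and 0 to 25.5 CPM (median 15.9) in control-diet 2N, where only library 5 was at 0 (−2.36 ± 1.15, edgeR adjusted p = 0.700).

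Next by p on the higher side were the core subunits Ndufs3, with 21.9, 35.5, 10.2 and 51.5 CPM in supplemented 2N (0.89 ± 0.63), and Ndufv2, with 96.8, 118, 70.03 and 90.4 CPM (0.59 ± 0.44). On the lower side, Ndufa11, a proximal subunit, had 3.01, 10.4, 5.07 and 11.5 CPM in supplemented 2N and 0.67 to 54.0 CPM (median 32.4) in control-diet 2N (−1.89 ± 1.13). The assembly factor Ndufaf3 had a difference of −2.10 ± 1.66. Ndufaf3 ran from 6.55 to 12 CPM in control-diet 2N and from 0 to 5.62 CPM in supplemented 2N. The ranges of Ndufb6 and Ndufaf3 did not meet, but neither difference passed. The share of all genes with such groups was not counted for this comparison. The pseudogene copy of Ndufa11 was at 0 in 5 of 6 control-diet 2N and 3 of 4 supplemented 2N libraries.

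Supplemented Ts65Dn was set against control-diet 2N to ask how near the treated trisomic animals came to untreated disomic ones. The median difference was −0.31, against 0.00 for all genes, with 28 of 45 lower. edgeR passed 0 members and 0.546% of all genes, and at an unadjusted p under 0.05, 4 members were lower and 1 higher, where 3.95% of all genes were lower and 5.22% higher. limma-voom with quality weights passed 1 member, Ndufb4 (−4.14, adjusted p = 0.0330), and 1.51% of all genes. Leaving out libraries 2 and 5, the edgeR median was −0.61 with 30 of 45 lower, 0 members and 1.17% of all genes passed, and 7 members were lower at an unadjusted p under 0.05, where 4.97% of all genes were. With all libraries the median was −0.03 with the share of mitochondrial ribosomal RNA as a covariate and −0.07 with the glial score, with 25 of 45 lower in each. Of the 8 neuron markers 7 were on the lower side here (median −0.26), and 1 fell, the vesicle calcium sensor Syt1 (−0.75 ± 0.18, edgeR adjusted p = 0.0307); its part in the members' difference was not tested. Within prefix 15 the members' median was −0.08 with 4 against 2 libraries, and −0.70 without libraries 2 and 5 (2 against 2). All genes had medians of −0.05 and 0.0 there.

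Ndufa10 again had the smallest p (−0.91 ± 0.33, edgeR adjusted p = 0.256), with 8 of 8 libraries below the control-diet 2N mean of 109 CPM. Ndufaf2 had −2.76 ± 1.19, Ndufa6 −1.01 ± 0.49 and Ndufs4 −1.10 ± 0.54. With libraries 2 and 5 left out these 4 were at −1.11, −2.50, −1.16 and −1.39, and Ndufb4 then had the smallest p (−3.84 ± 1.15, edgeR adjusted p = 0.0982). Ndufb6 was on the higher side, as in supplemented 2N (2.99 ± 1.44, edgeR adjusted p = 0.516): its level was 0.1 to 26.2 CPM in supplemented Ts65Dn and 0 to 2.58 CPM in control-diet 2N. The distal subunits Ndufb2, at 2.26 to 98.7 CPM against 5.35 to 36.0 CPM (0.85 ± 0.68), and Ndufb5, at 19.8 to 73.2 CPM against 12.2 to 32.5 CPM (0.74 ± 0.78), followed. When libraries 2 and 5 were left out, Ndufb6 was at 3.33 ± 1.47, Ndufb2 at 0.93 and Ndufb5 at 0.69.

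**Figure D4:**
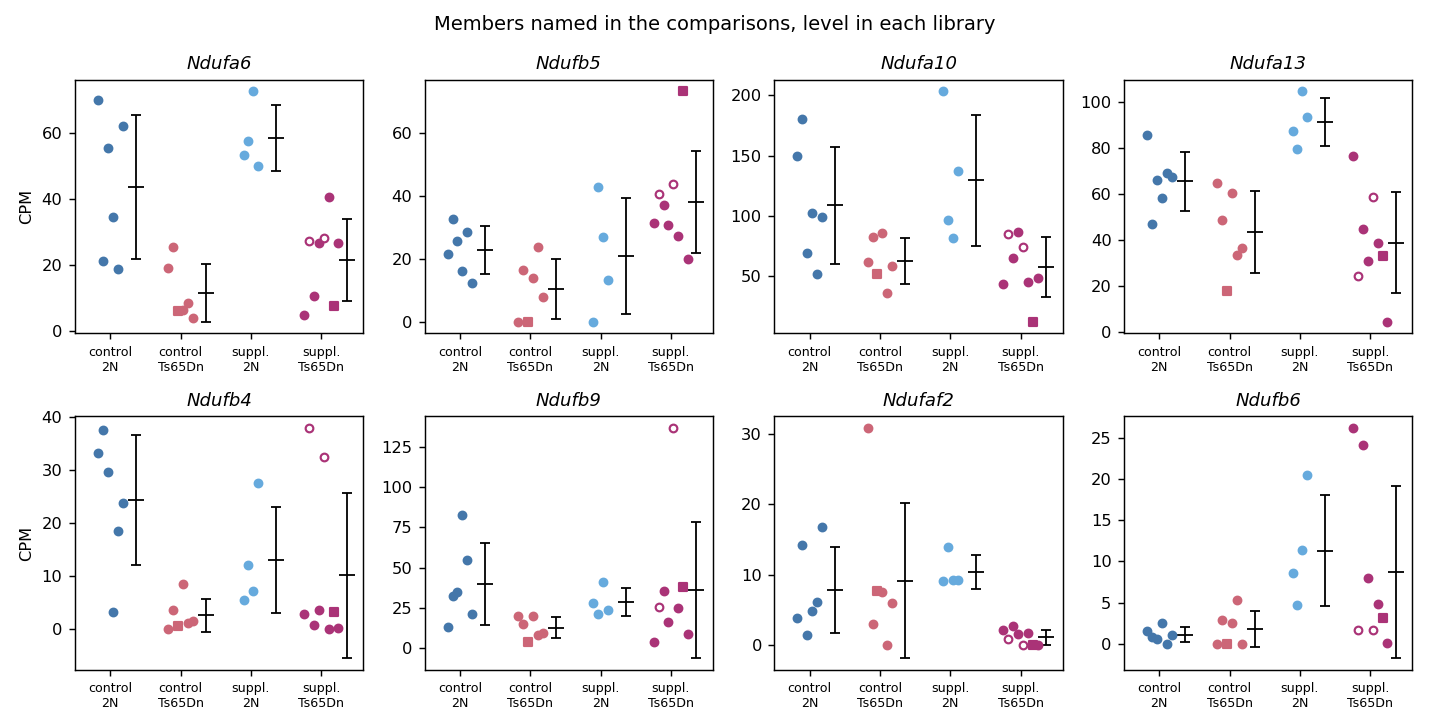
CPM (y axis) of 8 named members in each library by group, with the mean and SD; open circles are supplemented Ts65Dn 2 and 5 and squares the 2 libraries with the fewest genes. Ndufa6 lies lower in both Ts65Dn groups, Ndufaf2 is at most 2.75 CPM in supplemented Ts65Dn, and Ndufb4 is at 37.9 and 32.4 CPM in the open circles.

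The difference between diets in the genotype effect was tested as an interaction. The members' median was 0.27, against 0.13 for all genes, with 16 of 45 below 0. Leaving out libraries 2 and 5 gave a median of 0.13 with 22 below 0. edgeR passed 0 members and 0.00501% of all genes. At an unadjusted p under 0.05 there were 0 members below and 3 above 0, where 2.65% of all genes were below and 5.78% above. Without libraries 2 and 5 edgeR passed 0 members and 0.123% of all genes, and again 0 members were below and 3 above 0 at an unadjusted p under 0.05, where 3.1% of all genes were below and 5.78% above. Those of the full fit included Ndufb9 (1.98 ± 0.89, edgeR adjusted p = 0.527) and Ndufc2 (4.19 ± 1.89, edgeR adjusted p = 0.533). With libraries 2 and 5 left out the interaction was 1.203 for Ndufb9 and 4.15 for Ndufc2. Ndufaf2 (−3.38 ± 1.79), Ndufaf5 (−1.53 ± 1.09) and Ndufs3 (−1.08 ± 0.82) had the smallest p below 0, and were at −3.12, −1.31 and −1.28 without the 2 libraries.

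Over the 4 groups, 25 of the 45 tested members had their lowest mean CPM in control-diet Ts65Dn and 22 had their highest in supplemented 2N. When the mean of supplemented Ts65Dn was taken without libraries 2 and 5, 17 had their lowest mean in control-diet Ts65Dn, 17 in supplemented Ts65Dn, and 22 their highest in supplemented 2N. The same counts were not made over all genes, and supplemented 2N is the smallest group (n = 4). In the NADH module of the peripheral arm, the mean of Ndufv1 was 59.0 ± 23.0 CPM (SD) in 2N and 55.9 ± 17.2 in Ts65Dn on the control diet, and 67.3 ± 5.43 and 56.4 ± 27.3 on the supplemented diet. Ndufv2, its partner, was 62.3 ± 12.6, 41.2 ± 24.5, 93.7 ± 19.6 and 56.1 ± 32.7 CPM in the same order. Ndufs1 was 66.5 ± 20.0, 36.1 ± 19.3, 65.5 ± 26.2 and 40.0 ± 24.6 CPM. These 3 subunits sit together at the tip of the peripheral arm. All 3 had lower means in both Ts65Dn groups than in the 2N group on the same diet, and the ranges overlapped for each.

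On scaled CPM the mitochondrial genome's own complex I genes had their highest mean in supplemented Ts65Dn, whereas the nuclear members did not. The TMM scaling factors ran from 0.696 to 1.158 in supplemented Ts65Dn and from 0.984 to 1.136 in control-diet 2N. The order of supplemented Ts65Dn and control-diet 2N depends on this scaling. The 7 mt-Nd genes summed to 11388 ± 2524 CPM (SD, n = 6) in control-diet 2N, 6224 ± 3624 in control-diet Ts65Dn, 7401 ± 2633 (n = 4) in supplemented 2N and 12764 ± 4556 (n = 8) in supplemented Ts65Dn. On the control diet all 7 were on the lower side in Ts65Dn with a median of −0.88, and edgeR passed 0 of them, the smallest p values being those of mt-Nd1 (−1.10 ± 0.30, edgeR adjusted p = 0.102) and mt-Nd5 (−0.88 ± 0.24, edgeR adjusted p = 0.106). In supplemented against control-diet Ts65Dn 2 of 7 rose, mt-Nd6 (1.15 ± 0.24, edgeR adjusted p = 0.0212) and mt-Nd1 (1.37 ± 0.29, edgeR adjusted p = 0.0212), 4 others were on the higher side and 1 on the lower, and none of these passed. In the fit without libraries 2 and 5, 5 of 7 rose in this comparison, and mt-Nd6 also rose against supplemented 2N (1.34 ± 0.26, edgeR adjusted p = 0.00320). These 6 libraries summed to 9922 to 18496 CPM and libraries 2 and 5 to 7133 and 6566 CPM. The share of mitochondrial ribosomal RNA moved with these genes (29.0% to 43.3% in the 6 libraries). Values of the mt-Nd genes from the fit with this share as a covariate are not given. The part of this share in their rise was therefore not assessed.

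**Figure D5:**
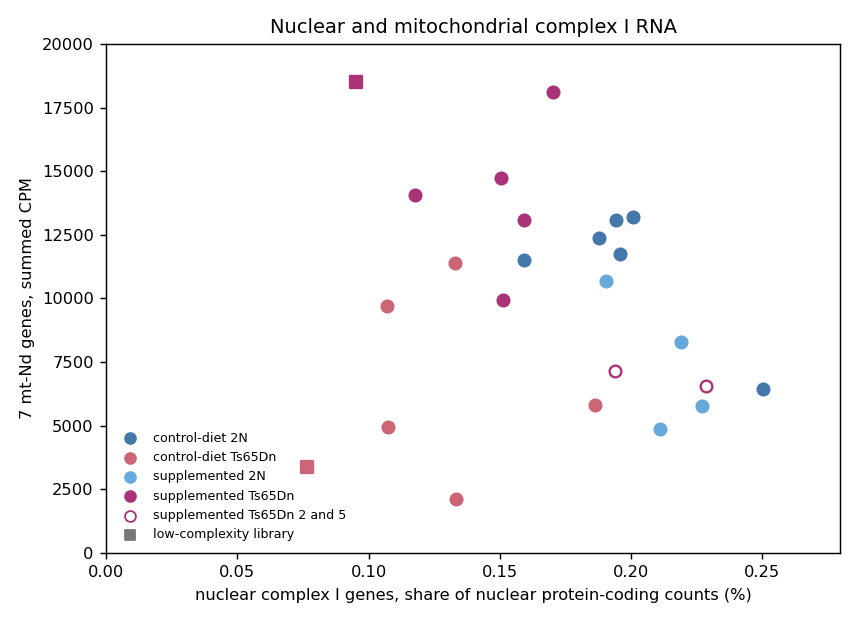
Each point is 1 library: the x axis is the members' share of nuclear protein-coding counts in percent and the y axis the summed CPM of the 7 mt-Nd genes. Supplemented Ts65Dn libraries other than 2 and 5 lie at 9922 to 18496 CPM with shares of 0.0953% to 0.170%, above most control-diet Ts65Dn libraries on the y axis.

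Other genes of the respiratory chain were read from the same fits. Of 44 tested subunits of complexes II to V, 38 were lower in Ts65Dn on the control diet with a median of −0.59, and edgeR passed 0 of them, the smallest p values being those of Uqcrc1, a core subunit of complex III (−1.06 ± 0.29, edgeR adjusted p = 0.103), and of the ATP synthase subunit Atp5c1 (−1.59 ± 0.46, edgeR adjusted p = 0.144). In supplemented Ts65Dn against control-diet 2N 1 of 44 fell, Cox8a of cytochrome c oxidase (−1.38 ± 0.35, edgeR adjusted p = 0.0470). In the fit without libraries 2 and 5, Cox8a and the ATP synthase subunit Atp5b fell in that comparison, and Atp5b and cytochrome c (Cycs) fell against supplemented 2N. Of 14 assembly genes of complex I with other names, 8 were lower on the control diet with a median of −0.46 and 0 passed in any of the 6 comparisons. Of 17 regulators of respiratory genes, 8 were lower on the control diet with a median of 0.02 and 0 passed. The coactivator Ppargc1a (PGC-1 alpha) had −1.02 ± 0.38 in Ts65Dn on the supplemented diet (edgeR adjusted p = 0.412), and the estrogen-related receptor Esrrg −1.71 ± 0.66 on the control diet (edgeR adjusted p = 0.261).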

How the data were processed

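Per the submitters' processing notes, reads were trimmed with Trimmomatic 0.39, aligned with STAR and quantified with RSEM. The notes name the builds GRCm39 and mm10 without roles, so no gene coordinates are given apart from RefSeq promoter windows. The authors deposited expected counts per gene, rounded here to whole numbers, and TPM, which served for levels between genes. Symbols came from GENCODE M21 (52081 of 55414 identifiers matched).

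Filtering with filterByExpr (minimum count 10) and TMM scaling preceded the quasi-likelihood test of edgeR 4.0.16 (R 4.3.3) over all 24 libraries with no covariate, two-sided, with Benjamini-Hochberg adjustment over 19967 genes. DESeq2 1.42.0 and limma-voom (limma 3.58.1) were alternatives. The procedure was tested on simulated data, where it missed most of the genes that had been altered. A member that did not pass can therefore still differ between groups. Replicate numbers follow accession order, and no label names a litter, so each p-value counts every animal as independent. Reads carried no molecular identifiers, and whether counting used strand is not given in the sources used here.

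Members and lists were chosen with earlier results of these data known. Named were the core subunits and, per comparison, the 3 members with the smallest p in each direction. Ndufs4, Ndufc1 and members listed for non-overlap or motifs were named after their values were seen. The values of 1 member are not reported here, though it is included in sums, counts and medians. Alternatives without supplemented Ts65Dn 2 and 5, without low Chat and within an identifier prefix were chosen after seeing the data.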

Additional observations from a re-analysis of the deposited data

Results flagged for a closer look

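In 7 of the 100 groups of 4 to 8 libraries looked at for the named members, 1 library stood far from the rest on the log2 CPM scale by Dixon's criterion, where chance gives about 1 in 20 groups. Ndufa4 was at −2.25 and Ndufa11 at −0.19 in control-diet 2N 5, a library with Chat under 1 CPM. Ndufb4 was at 1.78 in control-diet 2N 4, the value that made the genotype ranges overlap on the control diet. Ndufaf2 was at 3.82 in supplemented 2N 2, above the other 3 of its group. Within supplemented Ts65Dn, Ndufa10 was at 3.69 in library 7, Ndufa13 at 2.23 in library 8 and Ndufaf3 at −2.25 in library 1.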

How the results depend on the processing

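In all fits run, the members' median stayed below 0 on the control diet in Ts65Dn, from −1.19 (log2 of TPM plus 1) to −0.33 (glial score). All genes had medians of −0.28 and 0.20 in these settings. When 1 library was left out, the members' median ran from −0.94 to −0.62. The count of members called in this comparison was 0 in the main fit, 1 by DESeq2's Wald test and 0 to 1 when 1 library was left out. For supplemented Ts65Dn against control-diet 2N, limma-voom called 1. On log2 TPM the median was −0.94 for genotype on the supplemented diet and −1.07 for supplemented Ts65Dn against control-diet 2N, where all genes had medians of −0.40 and −0.46. For the interaction it was 1.19 with the mitochondrial rRNA covariate and −0.16 with the glial score. The cause was not tested. Signs also turned for supplemented against control-diet Ts65Dn (−0.02 without libraries 2 and 5) and for the diet in 2N (−0.05 with the rRNA covariate). No paired analysis was possible because the replicate numbers only follow accession order. Over all genes on the control diet, edgeR called 67, DESeq2 326, and edgeR 4 without the 2 libraries of fewest genes. Low members, near 0 in many libraries, had standard errors above 1.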
